A study of Mus musculus with 96 samples.

Results

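Respiratory complexes II to V of the inner mitochondrial membrane were examined through their nuclear subunit genes in mouse liver. The genes were taken by symbol: Sdha to Sdhd, and every symbol beginning with Uqcr, Cox4 to Cox8 or Atp5. Probe sets annotated to a single symbol were used, and the one with the highest mean log2 signal stood for its gene. This gave 46 genes on the array, of which 45 passed the filter on low signals among 14816 genes tested. Complex II had 4 genes, complex III 8, complex IV 10 and complex V 17. Another 7 genes encode complex IV isoforms known from other tissues (Cox4i2, Cox6a2, Cox6b2, Cox7a1, Cox7b2, Cox8b and Cox8c) and are described apart. Cox7b2, the testis form of subunit 7b, did not pass the filter.

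Liver RNA came from 96 male mice, each on its own Affymetrix one-colour mouse array. The inbred strains were CBA/J, DBA/2J, 129S1/SvImJ, C3H/HeJ and C57BL6/J, and B6C3F1/J is the first-generation cross of the last pair. In each strain 8 mice ate a control diet and 8 a diet cut by 25% in calories, from 8 to 22 weeks of age, after 2 weeks in which all received 84 kcal per week of a purified diet. The mice were housed singly, and the labels name no transgene or engineered allele. The 5 hepatocyte markers measured (Alb, Apoa1, Ttr, Cps1 and Hnf4a) had mean log2 signals of 13.70 to 16.96 over all mice, against a mean array median of 6.71.

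Levels are log2 of the deposited signal and differences are restricted minus control on that scale, so that 1 unit is a doubling. The array medians ranged from 6.21 to 7.50, apart from DBA/2J restricted replicate 6 at 8.29 and B6C3F1/J control replicate 2 at 8.66. The restricted CBA/J arrays also stood apart as a group, with a mean median of 7.29 against 6.52 in their controls. Their 3′ minus 5′ difference of the Gapdh control probe sets was -0.03 ± 0.16 (SD, n = 8) against -0.40 ± 0.07, and Alb was 1.95 higher. On DBA/2J restricted replicate 6 the Gapdh difference was 2.51, where the next highest of all arrays was 0.25. Many of the values that rest on these arrays are given with and without them. A lower signal in whole liver can come from fewer cells of a type or from less RNA per cell, which cannot be told apart here. P-values are from limma with Benjamini-Hochberg adjustment over all genes tested.

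Complex II oxidises succinate and hands the electrons to ubiquinone, complex III passes them on to cytochrome c, and complex IV uses them to reduce oxygen. Complexes III and IV pump protons as they do so, and complex V, the ATP synthase, lets the protons flow back through a membrane ring of c subunits and makes ATP in its F1 head. Liver uses this chain to pay for gluconeogenesis and urea synthesis. Several complex IV subunits exist in a common or liver form and in forms used by heart and skeletal muscle, lung or testis.

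The promoters of many of these genes are known to bind NRF1, the ETS factor GABP and YY1. RefSeq promoter windows of GRCm38.p6, from 250 bases before to 50 after the annotated start, were found for 35 of the 46 genes. The letters GCGCNTGCG, the core of the NRF1 motif, were present on either strand in 15 of 31 common or liver-type genes (48.4%), against 13.2% of 11879 tested genes with a window and 7.12% of all 27025 windows. The ETS letters CCGGAAG were in 13 of 31 (41.9%) against 16.9% and 9.93%, and the YY1 letters AAGATGGC in 3 of 31 (9.68%) against 4.5% and 3.19%. None of the 3 was in any of the 4 isoforms of other tissues that had a window. The 4 stretches of 160 bases ending just before the start below are written with matches in capitals, for the common subunits with the largest rises and for the 2 genes of subunit 6b.
Atp5g1 (chr11:96075632-96075791, minus strand): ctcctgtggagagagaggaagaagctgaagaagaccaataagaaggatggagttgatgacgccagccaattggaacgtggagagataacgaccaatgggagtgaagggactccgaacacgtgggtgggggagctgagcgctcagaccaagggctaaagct
Sdhd (chr9:50603850-50604009, minus strand): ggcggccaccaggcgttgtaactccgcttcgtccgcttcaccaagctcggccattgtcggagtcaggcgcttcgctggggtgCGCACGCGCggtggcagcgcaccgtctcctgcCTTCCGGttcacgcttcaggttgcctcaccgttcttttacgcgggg
Cox6b1 (chr7:30626115-30626274, minus strand): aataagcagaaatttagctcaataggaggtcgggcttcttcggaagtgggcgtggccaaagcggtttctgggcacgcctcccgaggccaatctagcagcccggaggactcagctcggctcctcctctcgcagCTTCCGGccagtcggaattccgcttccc
Cox6b2 (chr7:4753095-4753254, minus strand): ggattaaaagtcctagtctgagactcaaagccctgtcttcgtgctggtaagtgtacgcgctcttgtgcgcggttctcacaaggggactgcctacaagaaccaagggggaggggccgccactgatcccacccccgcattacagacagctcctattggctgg
Atp5g1 and Cox6b2 hold no match in this stretch. Sdhd holds an NRF1 match and an ETS match, and Cox6b1 an ETS match, all written here as the reverse complement of the letters named and not overlapping. Such a match is a string of letters and not a measured binding site.

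Averaged over the 6 strains, calorie restriction went with higher signals of subunit genes in all 4 complexes. Of the 45 genes tested 25 were higher at an adjusted p under 0.05, where 15.2% of all genes were, and 0 were lower, where 12.4% of all genes were. At an unadjusted p under 0.05 limma gave 31 and 1, a threshold at which the share of all genes was not counted. Among the 39 common or liver-type genes 23 were higher, with a median difference of 0.22 against 0.07 over all genes tested. By complex, 3 of 4 genes of complex II were higher (median 0.40), 5 of 8 of complex III (0.22), 5 of 10 of complex IV (0.18) and 10 of 17 of complex V (0.23). As a comparison outside these genes, 35 genes were taken by the Nduf symbols of complex I subunits. Of them 20 were higher and 1 lower, with a median of 0.24. Without CBA/J 12 were higher and 1 lower (all genes 9.36% and 8.11%), with a median of 0.22. Taken by symbol alone, the 35 genes include Ndufa4, which is also counted below with the complex IV partners, and Ndufa4l2, which was among the higher ones. Only Cox7a1 and Atp5g1 exceeded 1.5-fold among those called.

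Markers of liver cell types moved with the diet as well. Of 5 hepatocyte markers 4 were higher on average, namely Alb (0.22), Apoa1 (0.21), Ttr (0.25) and Cps1 (0.77), and 3 of 5 endothelial markers, Stab2 (0.25), Clec4g (0.26) and Kdr (0.63). The hepatocyte marker Hnf4a (-0.10) and the endothelial markers Pecam1 (0.09) and Lyve1 (-0.14) were not called. The list medians of 0.22 and 0.25 were about as large as that of the common subunits. The summed hepatocyte markers had a log2 of 17.62 to 19.82 in control and 17.40 to 20.54 in restricted livers, and the endothelial ones 11.88 to 13.24 and 12.36 to 13.82. In the other 10 marker lists 3 of 30 genes were higher and 2 lower. Without CBA/J, Alb, Apoa1 and Ttr were at -0.12, -0.05 and -0.08, none called, and Hnf4a was lower, at -0.24 (adjusted p = 0.0266). Stab2 (0.18), Pecam1 (0.11) and Lyve1 (-0.03) were then not called, and Cps1 (0.60), Clec4g (0.27) and Kdr (0.51) were still higher. The part of cell makeup in the subunit differences was not tested.

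Leaving out CBA/J lowered the count from 25 to 12 genes, of which 11 were among the 25, while 9.36% of all genes were higher. By complex it then was 3 of 4, 2 of 8, 2 of 10 and 4 of 17, with medians of 0.33, 0.14, 0.09 and 0.15, and Cox7a1. Leaving out the 2 arrays with a median above 8 instead raised it to 30 (all genes 18.7%). Leaving out both gave 20 (12.4%), of which 17 were among the 25. The 9 genes Atp5g1, Atp5mpl, Atp5pb, Cox6b1, Cox7a1, Sdhb, Sdhd, Uqcr10 and Uqcrfs1 were called in all 21 settings of normalization, filter, model and arrays compared. Left aside in that count were a minimum fold and the test of each probe set on its own. The 21 include the main fit. They also include the fit of only the groups compared, which for this contrast holds all groups and repeats the main fit. In value, 13 of the 39 common genes were higher in all 6 strains and another 15 in 5 of 6.

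**Figure D1:**
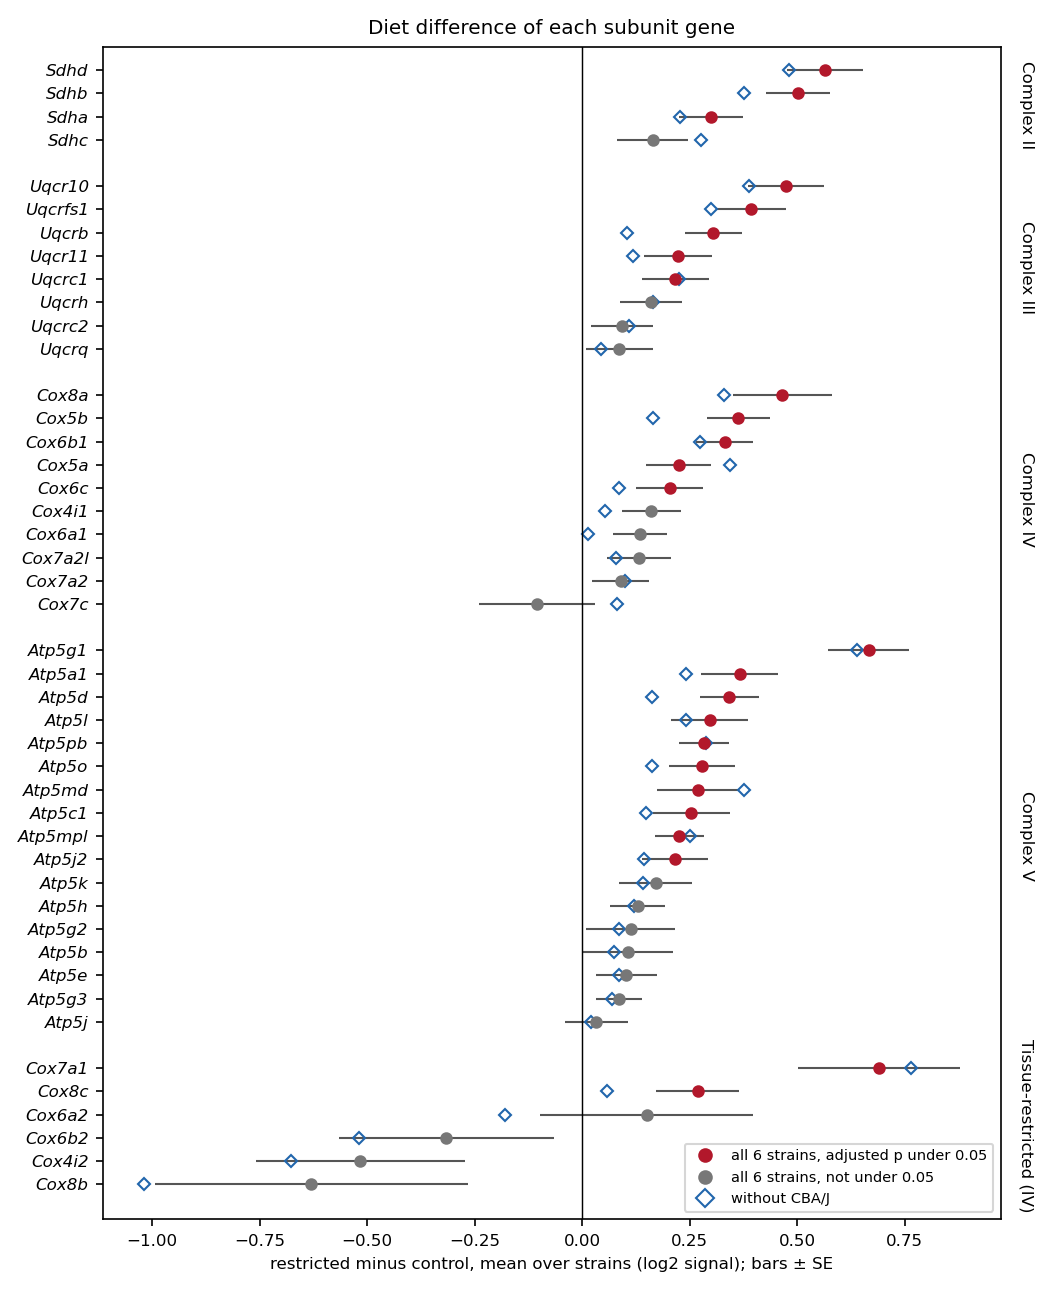
Averaged diet difference of 45 subunit genes. The x axis is restricted minus control in log2 signal, averaged over 6 strains; circles with bars are the estimate ± SE (red where the adjusted p is under 0.05) and open diamonds the same estimate without CBA/J. Atp5g1 at 0.67, Sdhd at 0.57 and Sdhb at 0.50 lead the common subunits, and among them only Cox7c lies below 0.

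The largest rise of a common subunit was that of Atp5g1 in complex V. It is 1 of 3 genes that encode the same mature c subunit of the proton-driven ring. In C57BL6/J, the lowest, median and highest control signals were 13.02, 13.13 and 13.31, and the restricted ones 13.37, 13.59 and 14.42. C3H/HeJ gave 13.67, 13.83 and 14.04 on the control diet and 14.15, 14.34 and 14.47 under restriction. In B6C3F1/J the values were 10.83, 13.70 and 14.15 and 14.16, 14.33 and 14.66. In these 3 strains every restricted mouse lay above every control mouse. For 129S1/SvImJ, controls gave 13.54, 13.80 and 14.14 and restricted mice 13.97, 14.49 and 14.78. CBA/J controls gave 13.85, 14.12 and 14.26, and its restricted mice 14.21, 14.97 and 15.16. The DBA/2J values were 13.47, 13.65 and 13.95 and 11.69, 14.47 and 14.92. In these strains the groups overlapped. In DBA/2J the overlap came from the array of replicate 6 alone, since the other 7 restricted mice started at 14.13. That array had the Gapdh difference of 2.51 given above, and the part of RNA quality in its values was not tested.

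Averaged over strains Atp5g1 was higher by 0.67 ± 0.09 (SE, 48 against 48 mice; adjusted p = 9.39e-09), or 1.59-fold. Without the 2 arrays with a high median the difference was called in each strain. It was 0.66 in 129S1/SvImJ, 0.57 in C57BL6/J, 0.50 in C3H/HeJ, 0.80 in CBA/J, 0.85 in DBA/2J and 0.60 in B6C3F1/J, with adjusted p from 5.96e-09 to 0.0023. With all arrays it was called in CBA/J and B6C3F1/J. The other c subunit genes gave 0.11 ± 0.10 for Atp5g2 (adjusted p = 0.457) and 0.08 ± 0.05 for Atp5g3 (adjusted p = 0.255), neither of which passed the test. The differences between these genes were not themselves tested.

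Other complex V genes had smaller averaged differences. The F1 head showed higher Atp5a1, the alpha subunit, at 0.37 ± 0.09 (adjusted p = 0.000825), Atp5d, the delta subunit, at 0.34 ± 0.07 (adjusted p = 3.09e-05), and Atp5c1, the gamma subunit, at 0.25 ± 0.09 (adjusted p = 0.0239). The catalytic beta subunit Atp5b, at 0.11 ± 0.11, and the epsilon subunit Atp5e, at 0.10 ± 0.07, did not pass the test. In the peripheral stalk, Atp5pb (subunit b) rose by 0.28 ± 0.06 (adjusted p = 4.85e-05) and Atp5o, the oligomycin sensitivity conferring protein, by 0.28 ± 0.08 (adjusted p = 0.00278). Atp5h and Atp5j of the same stalk were at 0.13 and 0.03 without passing. Among the small membrane subunits Atp5l, Atp5md, Atp5mpl and Atp5j2 rose by 0.30, 0.27, 0.23 and 0.21, and Atp5k was at 0.17 without passing. Without CBA/J the adjusted p of Atp5a1, Atp5d, Atp5c1, Atp5o, Atp5l and Atp5j2 was no longer under 0.05, at 0.11, 0.165, 0.382, 0.237, 0.0912 and 0.294.

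Complex II had the highest median difference of the 4 complexes, and its leading genes were Sdhd, a membrane anchor, and Sdhb, the iron-sulfur subunit. For Sdhd the lowest, median and highest values in 129S1/SvImJ were 12.75, 13.16 and 13.73 on the control diet and 13.41, 13.84 and 14.26 under restriction. C3H/HeJ gave 13.17, 13.27 and 13.46 and 13.48, 13.64 and 13.77, and CBA/J 13.04, 13.59 and 13.84 and 14.02, 14.63 and 14.87. The groups did not overlap in C3H/HeJ, CBA/J or B6C3F1/J, where the values were 11.14 to 13.53 and 13.58 to 14.07. C57BL6/J ran from 12.75 to 13.32 on the control diet and from 13.15 to 13.62 under restriction. DBA/2J overlapped through restricted replicate 6 at 11.01, the other 7 starting at 13.80 against a control maximum of 13.58. The averaged rise of Sdhd was 0.57 ± 0.09 (SE; adjusted p = 1.68e-07).

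Sdhb ranged from 14.47 to 15.44 in control CBA/J livers and from 15.50 to 16.32 in restricted ones, and these groups did not overlap. In C57BL6/J its values were 13.94, 14.22 and 14.62 on the control diet and 14.38, 14.50 and 15.26 under restriction, and in 129S1/SvImJ 14.53, 14.81 and 15.47 and 14.76, 15.20 and 15.52. C3H/HeJ gave 14.21, 14.44 and 14.73 and 14.51, 14.77 and 14.93, DBA/2J 14.89, 15.21 and 15.68 and 14.78, 15.61 and 16.51, and B6C3F1/J 12.55, 14.57 and 14.94 and 14.56, 14.85 and 15.43. The groups overlapped in every strain but CBA/J. Over the strains Sdhb rose by 0.50 ± 0.07 (SE; adjusted p = 3.76e-08), and by 0.38 without CBA/J (adjusted p = 0.000443). Sdha, the flavoprotein that oxidises succinate, rose by 0.30 ± 0.07 (adjusted p = 0.000843), and that p was 0.0569 without CBA/J. Sdhc, the other membrane anchor, was at 0.16 ± 0.08 (adjusted p = 0.13), and at 0.28 without CBA/J (adjusted p = 0.0276). A dimmer probe set of Sdhc was called higher, at 0.29 (adjusted p = 7.09e-06), and gave 0.97 in CBA/J, where the brighter one gave -0.40. A dimmer probe set of Sdhd did not pass the averaged test, at 0.11.

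**Figure D2:**
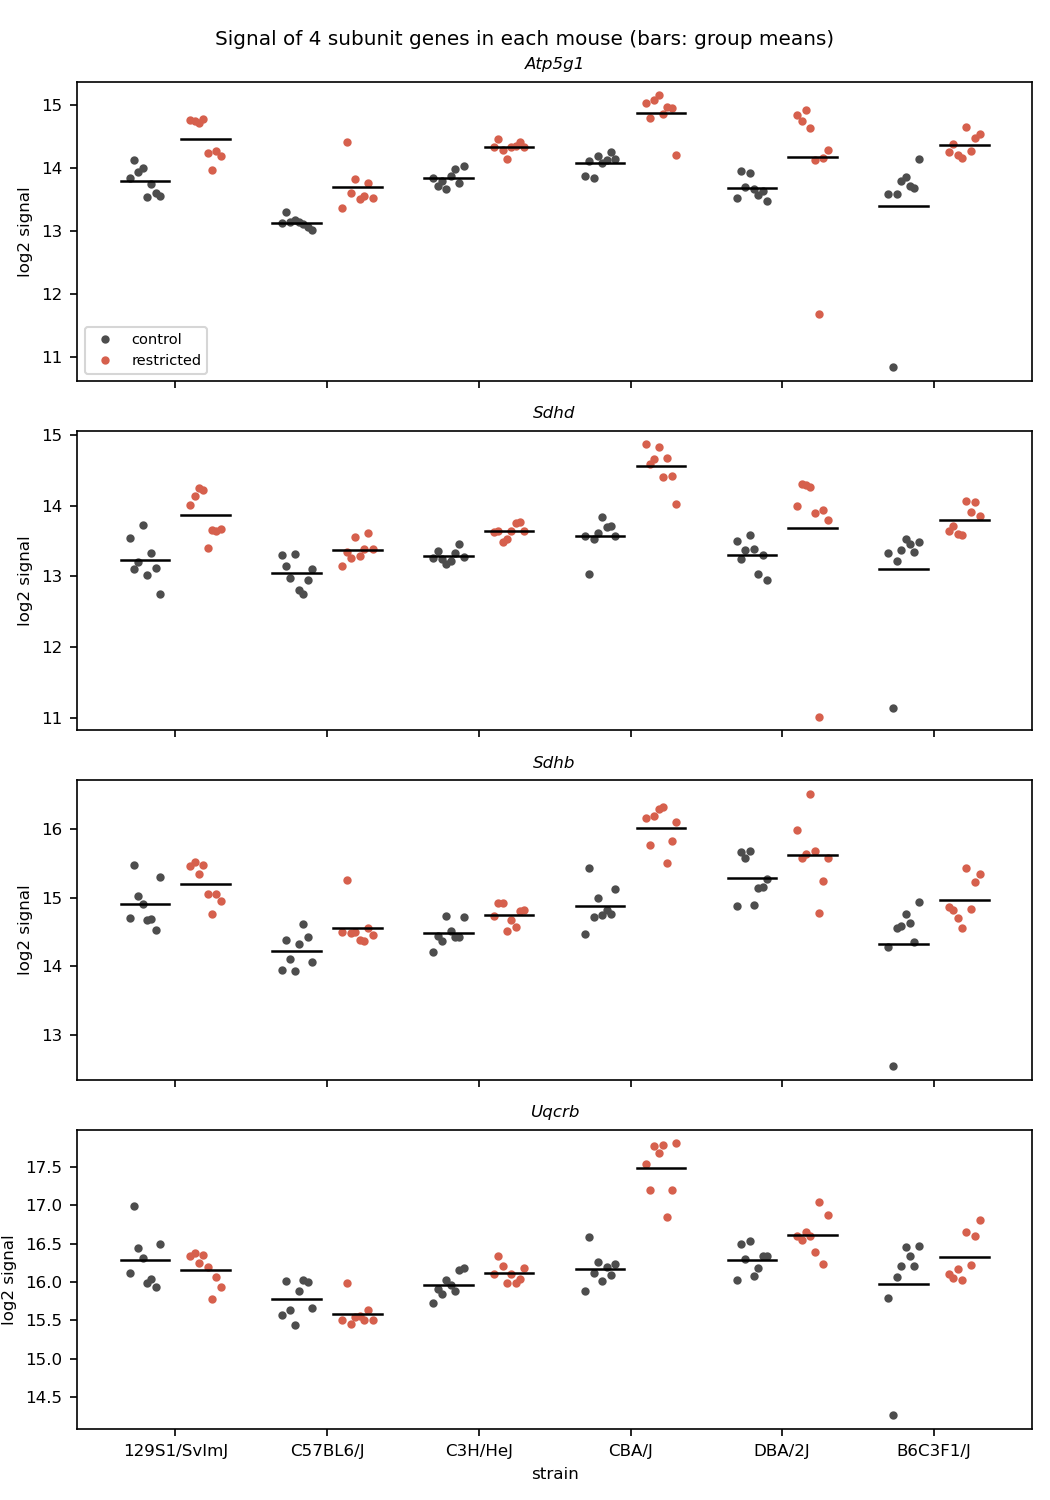
Log2 signal of Atp5g1, Sdhd, Sdhb and Uqcrb in each of 96 livers, by strain (x axis) and diet (grey control, red restricted), with a bar at each group mean of 8 mice. The points between 10.83 and 11.69 for Atp5g1 and Sdhd are DBA/2J restricted replicate 6 and B6C3F1/J control replicate 2, and Uqcrb stands out in restricted CBA/J at a median of 17.61.

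In complex III, Uqcr10, a small subunit, rose by 0.47 ± 0.09 (SE; adjusted p = 9.76e-06), and Uqcrfs1, the Rieske iron-sulfur protein that takes electrons from ubiquinol, by 0.39 ± 0.08 (adjusted p = 6.79e-05). Both kept an adjusted p under 0.05 without CBA/J, at 0.0031 and 0.0193. Uqcrb, Uqcr11 and the core protein Uqcrc1 rose by 0.30, 0.22 and 0.22. None of these 3 passed without CBA/J, where the values were 0.10, 0.12 and 0.22. The core protein Uqcrc2 (0.09), the hinge protein Uqcrh (0.16) and Uqcrq (0.09) did not pass the test.

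In complex IV, Cox8a, the liver form of subunit 8, was higher by 0.46 ± 0.11 (adjusted p = 0.000887), Cox5b by 0.36 ± 0.07 (adjusted p = 4e-05) and Cox6b1, the common form of subunit 6b, by 0.33 ± 0.07 (adjusted p = 4.02e-05). Cox5a and Cox6c rose by 0.22 and 0.20. The genes Cox4i1 (0.16), Cox6a1 (0.13), Cox7a2 (0.09), Cox7a2l (0.13) and Cox7c (-0.11) did not pass. The Cox7c probe sets were dim, the better one with a mean of 7.30, close to the mean array median of 6.71. For Cox6c a dimmer probe set was called in the opposite direction, at -0.33 (adjusted p = 0.0226). No probe set was annotated to Cox7b alone, and it was not analysed here. Without CBA/J, Cox8a, Cox5b and Cox6c were at 0.33, 0.16 and 0.08 with adjusted p of 0.0724, 0.195 and 0.615.

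The genes that build these complexes gave lower as well as higher signals. Of 40 partners and assembly factors tested, 6 were higher and 8 lower, where 15.2% and 12.4% of all genes were, with a median of -0.01. The count of higher genes is about that share of all genes. Without CBA/J 7 were higher and 6 lower (all genes 9.36% and 8.11%). Of the 21 complex IV partners and assembly factors among them, 6 were lower and 0 higher, and 5 and 2 without CBA/J, a difference from other genes that was not tested. The lower ones were Coa7 (-0.42), Cox18 (-0.40), which inserts a catalytic subunit into the membrane, Cox15 (-0.35), which makes haem a, Sco1 (-0.32), a copper chaperone, Cox20 (-0.28) and Cox19 (-0.19). Sdhaf1 (-0.35) and Atpaf1 (-0.33), assembly factors of complexes II and V, were lower too. Higher were Cyc1 (0.42), the cytochrome c1 subunit of complex III, Fmc1 (0.66), Atpif1 (0.42), the inhibitor of ATP synthase, the phosphate and ADP carriers Slc25a3 (0.39) and Slc25a5 (0.28), and Sdhaf4 (0.24). Cox20, Atpaf1 and Slc25a5 were no longer called without CBA/J, where their differences were -0.99, -1.35 and 1.11 within that strain. Cox11 and Higd1a were newly called higher when it was left out. Of 7 regulators of nuclear mitochondrial genes, the coactivator Ppargc1a (0.47) and the receptor Esrra (0.24) were higher, and Yy1 (-0.43), Gabpa (-0.37) and Tfam (-0.29) lower. Nrf1 (0.13) and Ppargc1b (0.47) did not pass. Without CBA/J, Yy1 was the only one of the 3 lower genes still called.

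Within single strains the counts were uneven. Over all 45 genes, 22 were higher and 1 lower in CBA/J, where 25.1% of all genes were higher and 15.6% lower. In B6C3F1/J 5 were higher (all genes 3.35%) and 0 lower (1.26%), and in DBA/2J 3 were higher (2.30%) and 0 lower (4.45%). None was called in 129S1/SvImJ (all genes 2.79% higher, 2.47% lower), C57BL6/J (1.86%, 1.85%) or C3H/HeJ (1.10%, 0.850%). At an unadjusted p under 0.05, 5 were higher and 1 lower in 129S1/SvImJ, 1 and 1 in C57BL6/J, and 1 and 1 in C3H/HeJ, by limma. The share of all genes at that unadjusted threshold was not counted, so these counts alone say little about the subunit genes. The counts at an adjusted p under 0.05 changed with the 2 arrays of high median. Without them 7 of the 39 common genes were higher in 129S1/SvImJ (all genes 5.14%), 2 in C57BL6/J (3.64%) and 1 in C3H/HeJ (2.23%). The counts in C57BL6/J and C3H/HeJ are near the shares of all genes. The median difference of the 39 common genes was 0.57 in CBA/J (all genes 0.31), 0.43 in B6C3F1/J (0.00), 0.21 in DBA/2J (0.03), 0.13 in C3H/HeJ (0.01), 0.08 in 129S1/SvImJ (0.05) and 0.05 in C57BL6/J (-0.02). It was above 0 for 37 of 39 genes in C3H/HeJ and 26 of 39 in C57BL6/J.

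All strains share 1 estimate of the spread in the fit. A fit of each strain's 16 arrays alone called 5 genes higher in 129S1/SvImJ (all genes 3.61%), namely Cox7a1, Atp5g1, Sdhd, Cox5a and Sdhc. It called 3 in C57BL6/J (4.83%), namely Atp5g1, Sdhd and Uqcrfs1, and 3 in C3H/HeJ (3.99%), namely Atp5g1, Sdhd and Atp5a1. Atp5g1 and Sdhd were thus called in all 3 of these strains, though the counts in C57BL6/J and C3H/HeJ are near those shares. The fits of DBA/2J alone and of B6C3F1/J alone called 0 of the 45 genes, where 51 and 113 of 14816 genes were higher. In B6C3F1/J the 5 calls of the fit of all strains (Atp5g1, Uqcr10, Sdhd, Sdhb and Sdha) changed with control replicate 2. Without that array 0 were called (all genes 1.63%), 3 once DBA/2J restricted replicate 6 was left out as well (2.36%), and the median of the common genes was 0.14 in place of 0.43. Leaving out only DBA/2J restricted replicate 6 gave 13 calls in B6C3F1/J (4.97%). In DBA/2J the fit of all strains called Cox7a1, Cox6b1 and Atp5pb, and 14 common genes once both high arrays were left out (3.91%).

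**Figure D3:**
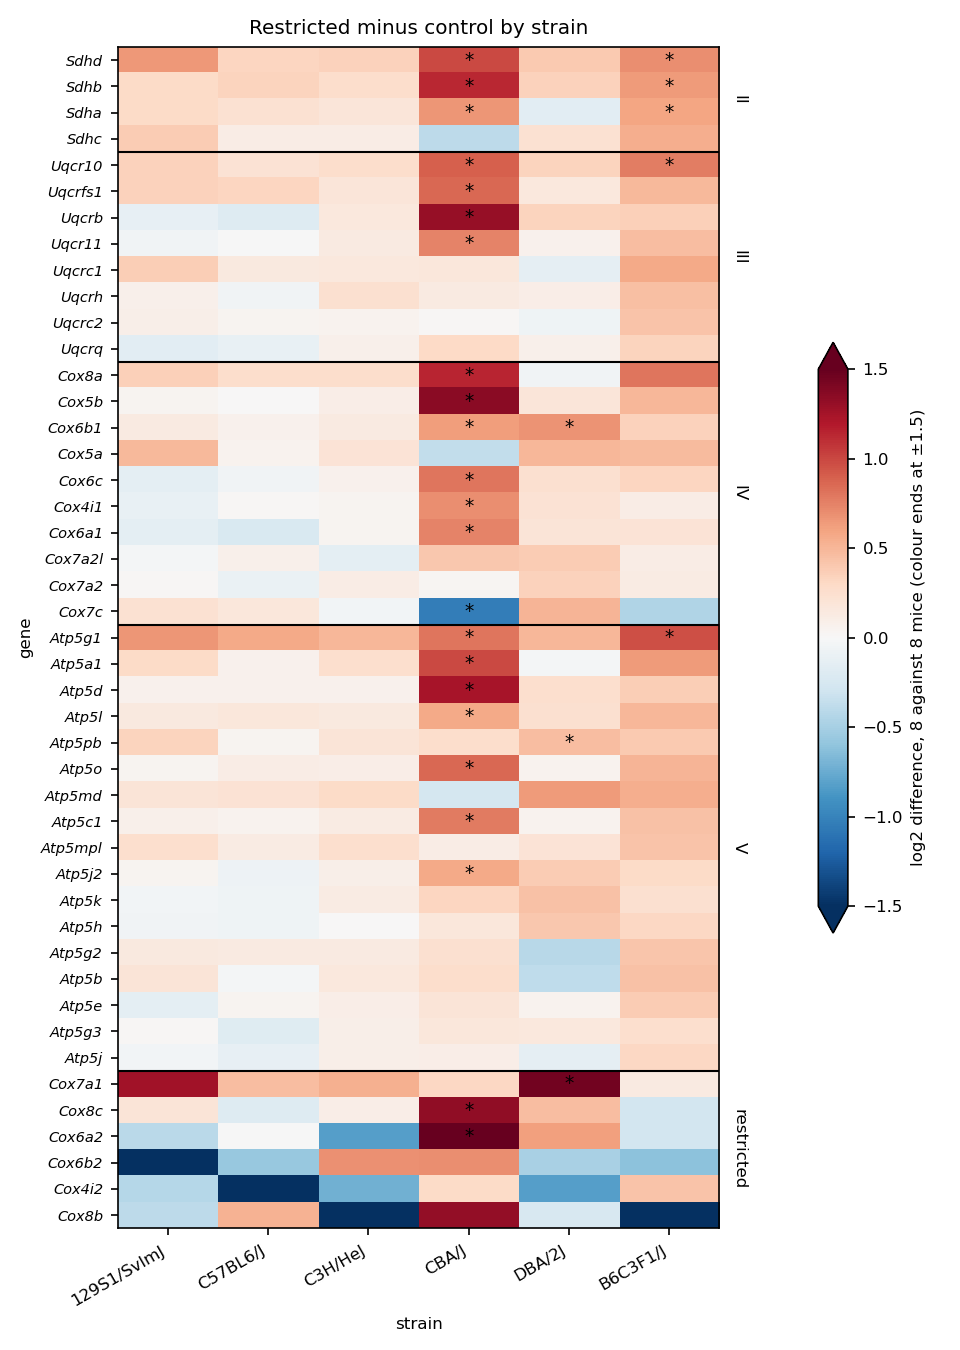
Diet difference of each of 45 subunit genes in each strain. Rows are genes grouped by complex, columns strains, and the colour gives restricted minus control in log2 signal for 8 against 8 mice (red higher, blue lower); an asterisk marks an adjusted p under 0.05. The CBA/J column holds 23 of the 31 asterisks.

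A set of 9 genes had a diet difference that varied between strains by the interaction test, where 23.9% of all genes did. They were Uqcrb (adjusted p = 1.21e-06), Cox5b (4.84e-05), Atp5d (0.000128), Cox8c (0.000971), Cox6a1 (0.00428), Sdhb (0.0321), Cox5a (0.0339), Atp5o (0.0447) and Cox8b (0.0465). In CBA/J, Uqcrb signals were 15.89, 16.16 and 16.59 (lowest, median, highest) on the control diet and 16.85, 17.61 and 17.81 under restriction, with no overlap. In C57BL6/J they were 15.44, 15.78 and 16.03 and 15.45, 15.52 and 15.99. The restricted CBA/J mice had the highest median of the 12 groups. The CBA/J difference of Uqcrb was 1.30 ± 0.16 (SE; adjusted p = 1.73e-10), while the other strains ran from -0.19 to 0.35. The other Uqcrb probe set, with a mean of 13.43, gave -0.34 in CBA/J (adjusted p = 0.2) and did not pass the interaction test (adjusted p = 0.282). In CBA/J, Cox5b went from 14.90, 15.02 and 15.15 to 15.87, 16.41 and 16.72, a difference of 1.35 ± 0.18 (SE; adjusted p = 1.49e-09). Atp5d gave 14.28, 14.51 and 14.63 on the control diet and 15.33, 15.82 and 15.93 under restriction (1.24). Cox8c gave 7.87, 8.73 and 9.14 and 9.56, 10.06 and 10.31 (1.33), and Cox6a1 15.26, 15.56 and 15.76 and 15.99, 16.22 and 16.52 (0.74). The groups did not overlap for Cox5b, Atp5d, Cox8c or Cox6a1. In the other 5 strains the differences of these 4 genes ran from -0.27 to 0.49. Cox5a had the opposite pattern, with -0.37 in CBA/J and 0.49 in DBA/2J.

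Without CBA/J the interaction test called 0 of the 45 genes (all genes 1.55%), and 0 at an unadjusted p under 0.05 in limma. With the 2 high arrays left out too, it again called 0 (3.96%), with 8 at an unadjusted p under 0.05. The shares of all genes at the unadjusted threshold were not counted. With the 2 high arrays left out and CBA/J kept, the interaction test called 21 (30.2%). The CBA/J rises also depended on the probe set and the scaling. Under quantile normalization 10 of the 45 genes were higher and 8 lower in CBA/J, where 13.6% and 17.3% of all genes were, so the lower count is about that share. The median of the common genes was then -0.04 against 0.07 over all genes, and the differences of Uqcrb and Cox6a1 were -0.08 and -0.17. A dimmer probe set was called lower where the brightest was higher for Atp5o (-1.64 against 0.86), Cox6c (-1.88 against 0.80) and Sdhd (-1.34 against 0.99). For Cox5a the 3 probe sets gave -0.37, 0.71 and -1.81. In a fit that held each array's median as a covariate, the median of the common genes in CBA/J was 0.85 in place of 0.57, and 31 of 39 were higher in place of 20. Over all genes that median went from 0.31 to 0.14 and the share higher from 25.1% to 21.3%, and Uqcrb was at 1.48. The part of the Gapdh 3′ to 5′ differences of these 8 arrays in the CBA/J results was not tested.

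On the control diet 29 of 45 genes differed between strains, where 43.6% of all genes did. The widest gap was that of Cox6b2, the testis form of subunit 6b, in 129S1/SvImJ. Its lowest, median and highest control signals were 11.35, 12.08 and 12.42 in 129S1/SvImJ. They were 4.89, 5.79 and 6.77 in C57BL6/J and 2.91, 7.01 and 7.60 in DBA/2J. C3H/HeJ, CBA/J and B6C3F1/J controls ran from 2.06 to 6.73, 2.03 to 6.87 and 2.54 to 7.17. Every 129S1/SvImJ liver was above every liver of another strain, on both diets. The 129S1/SvImJ mean exceeded that of the other 5 strains by 6.14 ± 0.47 (SE; adjusted p = 7.08e-20). The other strains lay near or below the array median, so the size of this difference is uncertain. Neighbouring genes measured on the array gave 0.82 for Tmem150b, 0.31 for Kmt5c, -0.06 for Il11 and -0.06 for Tmem190 in the same comparison, none called. Tmem150b, Il11 and Tmem190 were dim, with means of 4.58, 5.51 and 5.35, below the mean array median of 6.71, so their values say little.

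Under restriction, Cox6b2 in 129S1/SvImJ was at 9.45, 10.13 and 11.40 against the control values just given. Of the restricted mice, 1 at 11.40 lay above the lowest control at 11.35. The difference was -1.62 ± 0.61 (SE), with an adjusted p of 0.122 in the fit of all strains. In the fit of the 129S1/SvImJ arrays alone, whose spread does not include the dim values of the other strains, the adjusted p was 0.000206. Cox6b1, the common form, had its highest control mean in 129S1/SvImJ too. Its signals were 15.42, 15.63 and 16.16 there and 14.58, 14.76 and 15.03 in C57BL6/J, without overlap. It exceeded the other strains by 0.60 ± 0.13 (SE; adjusted p = 0.000176), and its other probe set by 0.66. Restricted Cox6b1 in 129S1/SvImJ differed by 0.14 (adjusted p = 0.803).

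Atp5mpl, a small proteolipid of the ATP synthase membrane part, was low in DBA/2J. Its control signals were 10.86, 11.36 and 11.72 in DBA/2J, 13.10, 13.25 and 13.60 in CBA/J and 11.93, 12.53 and 12.81 in B6C3F1/J. In 129S1/SvImJ, C57BL6/J and C3H/HeJ they ran from 12.70 to 13.75, 12.71 to 13.51 and 12.53 to 13.38. No DBA/2J control reached the lowest control of another strain, and the restricted DBA/2J mice, at 10.98 to 11.94, were below all restricted mice of the other strains. The DBA/2J difference was -1.60 ± 0.11 (SE; adjusted p = 1.18e-23). A single probe set measured this gene, and the part of sequence differences under its probes was not tested. The averaged diet rise of Atp5mpl was 0.23 ± 0.06 (SE; adjusted p = 0.00102). Its neighbours Xrcc3, Zfyve21, Ppp1r13b and Aspg were at -0.52, -0.32, -0.53 and -0.31, with adjusted p of 0.542, 0.0728, 0.05 and 0.142. Xrcc3 was dim too, with a mean of 5.93.

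**Figure D4:**
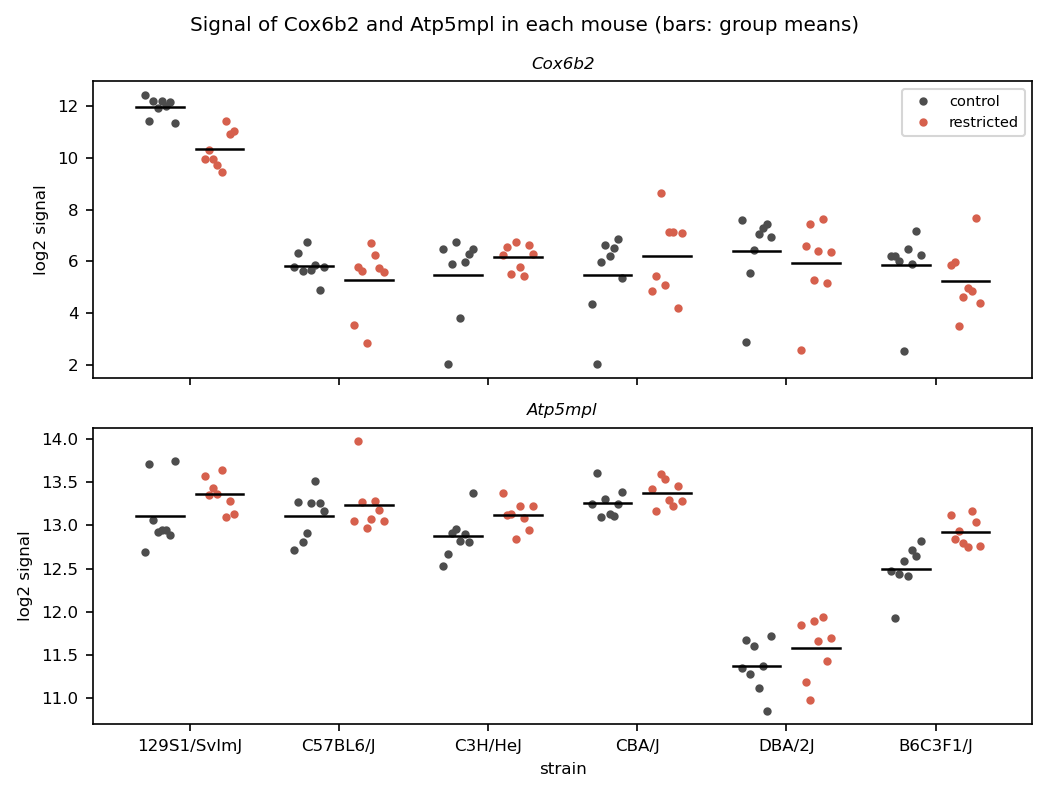
Log2 signal of Cox6b2 and Atp5mpl in each of 96 livers by strain (x axis) and diet (grey control, red restricted), with bars at the means of 8 mice. Cox6b2 is above 9 only in 129S1/SvImJ, where the restricted mice have a median of 10.13 against 12.08, and Atp5mpl is lowest in DBA/2J at medians of 11.36 and 11.68.

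Sdhb was highest in control DBA/2J, at 14.89, 15.21 and 15.68, and lowest by mean in C57BL6/J, with the values given above. The DBA/2J difference from the other strains was 0.72 ± 0.14 (SE; adjusted p = 8.62e-05) and that of C57BL6/J -0.55 ± 0.14 (SE; adjusted p = 0.00268). CBA/J had the highest Atp5o, at 13.49, 13.83 and 13.91 against 12.68, 12.87 and 13.12 in C57BL6/J, and the highest Atp5pb, at 15.02, 15.15 and 15.30 against 14.42, 14.56 and 14.79 in DBA/2J. Neither pair of groups overlapped. The CBA/J differences were 0.64 ± 0.14 (SE; adjusted p = 0.000777) and 0.57 ± 0.11 (SE; adjusted p = 7.17e-05). The dimmer probe set of Atp5o differed by 1.31 in the same comparison (adjusted p = 1.8e-07).

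Counted by strain against the mean of the other 5 control groups, C57BL6/J had 11 genes lower and 1 higher (16.3% of all genes in either direction). DBA/2J had 12 higher and 1 lower (14.6%), CBA/J 6 higher and 2 lower (12.1%) and 129S1/SvImJ 3 higher and 1 lower (12.7%). C3H/HeJ had 2 lower (10%) and B6C3F1/J 1 higher and 5 lower (11.1%). Without the 2 arrays with a high median B6C3F1/J had 5 higher and 1 lower, and its median over common genes was 0.04 in place of -0.24. C57BL6/J then had 1 higher and 23 lower, and DBA/2J 16 higher and 2 lower. The shares of all genes were not counted in that setting. With all arrays, the median over common genes was -0.28 in C57BL6/J and 0.25 in DBA/2J, but -0.07 and -0.02 under quantile normalization, with 8 higher and 9 lower in C57BL6/J (all genes 6.37% and 5.13%). Cox7a2l, a supercomplex factor of which C57BL6 mice are known to carry a shortened form, was -0.42 in C57BL6/J (adjusted p = 0.029). Its other probe sets there gave -0.32 and -0.47, and in DBA/2J the 3 gave 0.55, 0.69 and 0.69.

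B6C3F1/J controls differed from the mean of the parents' controls in 2 genes, where 8.94% of all genes did. Atp5mpl was lower, at -0.49 ± 0.12 (SE; adjusted p = 0.00407), and Uqcrh, the hinge protein of complex III, was at -0.48 ± 0.15 (SE; adjusted p = 0.0351). For Uqcrh the B6C3F1/J values were 11.00, 13.67 and 13.96, against 13.56, 14.00 and 14.36 in C57BL6/J and 13.46, 13.74 and 14.00 in C3H/HeJ, with overlap of the 3 groups. Without B6C3F1/J control replicate 2 the value for Uqcrh was -0.14 (adjusted p = 0.496) and that for Atp5mpl -0.41 (adjusted p = 0.0239). Under quantile normalization Atp5mpl was at -0.30 and no longer called (adjusted p = 0.112). The median over the family turned sign with control replicate 2 as well. The median of the common genes was -0.08 with it and 0.20 when the 2 high arrays were left out, where 11 genes were higher and 1 lower than the parents' mean (all genes 4.04% and 4.10%).

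Of the isoforms known from other tissues, Cox7a1, the heart and muscle form of subunit 7a, had the largest averaged diet difference among the 45 subunit genes tested. Its control signals were 5.39, 6.70 and 8.86 in 129S1/SvImJ and 1.57, 7.43 and 8.05 in DBA/2J, against restricted signals of 7.41, 8.22 and 8.47 and 7.61, 8.13 and 8.48. C57BL6/J gave 6.42, 7.49 and 8.03 and 6.83, 7.82 and 8.76, and C3H/HeJ 7.05, 7.28 and 10.55 and 7.03, 8.45 and 8.84. CBA/J gave 6.41, 6.76 and 7.68 and 4.45, 7.55 and 7.71, and B6C3F1/J 7.20, 8.16 and 8.94 and 7.19, 8.08 and 10.38. The groups overlapped in every strain, and the signal reached the array median on 82 of 96 arrays. The difference was 0.69 ± 0.19 (SE; adjusted p = 0.0028), 1.61-fold, with the sign positive in all 6 strains. In the fit of all strains, and not in that of DBA/2J alone, it was called within DBA/2J at 1.44 (adjusted p = 0.0397). There control replicate 5 was at 1.57. Without that mouse the DBA/2J difference was 0.72 (adjusted p = 0.289) and the averaged one 0.57 (adjusted p = 0.00211).

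Markers of striated muscle were high in some of these livers. The summed signal of 6 muscle markers (Ckm, Acta1, Myh4, Tnnc2, Mylpf and Myl1) had a log2 of 7.13 to 15.62 in control and 7.39 to 16.02 in restricted livers, with a median of 8.41 over 96. It exceeded 12 on 7 arrays, 6 of them controls, and 5 of the 6 markers had a mean below the array median. On these 7 arrays Cox6a2 ran from 8.20 to 11.99 and Cox8b from 7.21 to 11.11, against means over all mice of 7.06 and 4.72. Cox7a1 ran from 7.03 to 10.55 against a mean of 7.60, and was not high on each of them. B6C3F1/J restricted replicate 2, at 16.02 for the markers, had 11.99 for Cox6a2, 10.96 for Cox8b and 10.38 for Cox7a1. C3H/HeJ control replicate 8, at 15.44, had 11.82, 11.11 and 10.55. With the 7 arrays left out, the averaged difference of Cox7a1 was 0.82 (adjusted p = 0.00016), against 0.69 with them. The brown fat markers Ucp1 and Cidea had means over all mice of 3.83 and 4.84, below the array median. Cidea was not low throughout. It ran from 7.19 to 10.74 in C57BL6/J controls, whose array medians were 6.35 to 6.63, and reached 7.91 in restricted CBA/J mice. The mean log2 of the 2 summed markers was 8.95 in C57BL6/J controls and 5.08 in restricted C57BL6/J mice.

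**Figure D5:**
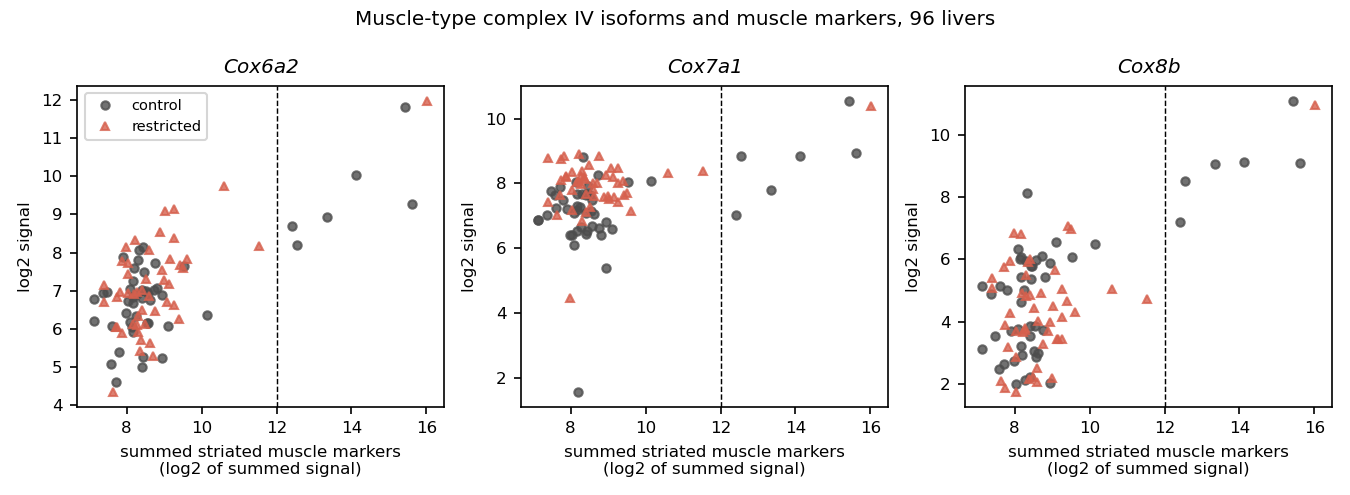
Log2 signal of Cox6a2, Cox7a1 and Cox8b (y axes) against the log2 of the summed signal of 6 striated muscle markers (x axis) in 96 livers; grey circles are control, red triangles restricted mice, and the dashed line marks 12. The arrays beyond the line, 6 control and 1 restricted, include the highest values of all 3 genes.

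Cox6a2, the muscle form of subunit 6a, was at 0.15 ± 0.25 averaged over strains (adjusted p = 0.703) and rose in CBA/J, from 5.26, 6.31 and 7.06 to 7.61, 7.98 and 9.09, without overlap. The CBA/J difference was 1.80 ± 0.61 (SE; adjusted p = 0.0134). It was not called under quantile normalization, at 1.34 (adjusted p = 0.0885), or with the array median as covariate, at 1.33 (adjusted p = 0.138). Between the same groups the mean log2 of the summed striated muscle markers went from 8.06 to 9.11, that of 4 cholangiocyte markers from 7.94 to 9.27, that of 4 lymphocyte markers from 7.70 to 9.13, and the array median from 6.52 to 7.29. The part of these in the Cox6a2 difference was not tested beyond the covariate fit. Cox8b, the muscle form of subunit 8, was at -0.63 ± 0.36 (adjusted p = 0.202), and its mean was below the array median in all 12 groups. Cox4i2, the lung form of subunit 4, was at -0.52 ± 0.24 (adjusted p = 0.103). In C57BL6/J it ran from 5.50 to 6.92 on the control diet and from 2.37 to 5.87 under restriction, with an adjusted p of 0.0658, and of 0.0315 in the fit of that strain alone. Cox8c, the testis form of subunit 8, was above the array median on all arrays and higher by 0.27 ± 0.10 (adjusted p = 0.0277). The CBA/J values are given above, and without CBA/J the averaged value was 0.06 (adjusted p = 0.808). Cox7b2 reached the array median on 3 arrays in all.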

How the data were processed

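Liver RNA of 96 male mice in 12 groups of 8 was read on Affymetrix one-colour arrays, 1 mouse per array. The values the authors deposited are linear intensity signals made with MAS5, per the submitters' processing notes, with a version not given in the sources used here. The trimmed mean of each array, with 2% left out on each side, was 500 to 500.2, so the arrays had been scaled to about that level. The number of arrays limits the precision.

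Log2 signals were analysed in R 4.3.3 with limma 3.58.1. After removal of 64 control probe sets, probe sets at or above the array median on 8 or more of 96 arrays were kept, 32999 of 45101. Symbols came from the platform annotation, which gave 1 symbol to 34958 probe sets, several to 932 and none to 9211. The kept probe set with the highest mean stood for a gene. Means of the 12 groups were fitted with lmFit and contrasts tested with eBayes (trend, robust). Values of p were adjusted by Benjamini-Hochberg over 14816 genes, with calls at an adjusted p under 0.05. Contrasts were the diet difference averaged over strains and in each strain, the interaction, the control groups by an F test and each against the mean of the other 5, and B6C3F1/J against its parents. The genes, the lists and the rule for named genes were chosen with earlier results of these data known. The rule described in full the 4 largest averaged rises and falls among calls, the 6 smallest p-values of the interaction and of the control groups, calls against the parents, and every isoform of other tissues; other genes were named by role.

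Replicate numbers did not pair mice (median correlation of deviations 0.00 over 528 same-numbered pairs), so no block was used. No 2 arrays were duplicates. Marker lists of 12 cell types and tissues were summed per array. The test was tried on simulated data. Alternatives were quantile normalization, 75th percentile centring, an offset of 8.55 before log2, other filters, other use of probe sets, plain eBayes, array weights, a replicate block, the groups of a contrast alone, a 1.5-fold minimum, and fits without single arrays, without CBA/J, without 2 arrays with a median above 8 or without 7 arrays with high muscle markers. Figures used Matplotlib 3.10.9 in Python 3.11.15.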

Additional observations from a re-analysis of the deposited data

Results flagged for a closer look

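Within each group of 8 mice, the highest or lowest mouse was compared with the nearest of the others by Dixon's gap test, for the genes described in full and for the array median. Of 228 combinations of gene and group 39 stood out (17.1%), where chance gives about 1 in 20. Values are log2 signals. In B6C3F1/J control replicate 2, an array median of 8.66 lay above the others. Atp5g1 at 10.83, Sdhd at 11.14, Sdhb at 12.55, Uqcrb at 14.26, Cox5b at 12.97, Atp5d at 12.83, Atp5mpl at 11.93, Cox6b1 at 12.96, Atp5o at 10.87, Atp5pb at 12.66 and Uqcrh at 11.00 lay below the other mice in B6C3F1/J control replicate 2. In C57BL6/J restricted replicate 2, Atp5g1 at 14.42, Sdhb at 15.26, Uqcrb at 15.99, Atp5mpl at 13.98, Cox6b1 at 15.30 and Uqcrh at 14.37 lay above the others. In DBA/2J restricted replicate 6, an array median of 8.29, Cox6a1 at 16.94 and Atp5pb at 15.52 lay above the others. Atp5g1 at 11.69, Sdhd at 11.01 and Atp5o at 11.40 lay below the other mice in DBA/2J restricted replicate 6. Single low values were those of C3H/HeJ restricted replicate 4 (Cox6a2 4.34), CBA/J control replicate 2 (Sdhd 13.04), CBA/J control replicate 2 (Atp5o 13.49), CBA/J control replicate 6 (Cox8c 7.87) and CBA/J restricted replicate 7 (Cox7a1 4.45). Further low values came from CBA/J restricted replicate 8 (Atp5g1 14.21), DBA/2J control replicate 5 (Cox7a1 1.57), DBA/2J control replicate 2 (Cox6b2 2.91) and B6C3F1/J control replicate 4 (Cox6b2 2.54). Single high values were those of C3H/HeJ control replicate 8 (Cox7a1 10.55), C3H/HeJ control replicate 8 (Cox6b1 15.52), C3H/HeJ control replicate 8 (Atp5o 13.63), C3H/HeJ restricted replicate 2 (Atp5o 13.76) and DBA/2J control replicate 1 (Cox5b 15.52). Further high values came from B6C3F1/J restricted replicate 1 (Uqcrh 14.04), B6C3F1/J restricted replicate 2 (Cox6a2 11.99) and B6C3F1/J restricted replicate 2 (Cox8b 10.96).

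The diet difference varied between strains for 9 of 45 genes, where it did for 23.9% of all genes, by limma's interaction F test, with adjusted p of 1.21e-06 for Uqcrb, 4.84e-05 for Cox5b, 0.000128 for Atp5d, 0.000971 for Cox8c, 0.00428 for Cox6a1, 0.0321 for Sdhb, 0.0339 for Cox5a, 0.0447 for Atp5o and 0.0465 for Cox8b. Cox8b is among them with group means below the array median throughout. None of the 9 was called without CBA/J.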

How the results depend on the processing

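Counts of genes that moved by over 1.5 times are given first, with the setting; all others stayed within that range. The settings that combined or left out single arrays, and the muscle-marker setting, were chosen after seeing the data. For genes higher, averaged, 25 became 12 with CBA/J left out, 16 with quantile normalization and CBA/J left out, 2 with a 1.5-fold minimum. For genes lower, averaged, 0 became 1 with quantile normalization, the array median as covariate and quantile normalization and CBA/J left out. For genes higher in 129S1/SvImJ, 0 became 8 with quantile normalization, 1 with the stricter filter, the muscle-marker arrays left out and each probe set tested separately, 2 with probe set means, 12 with array weights, 7 with the 2 high arrays left out, 4 with the array median as covariate, 5 with only the groups compared, and 0 to 4 without single arrays. For genes lower in 129S1/SvImJ, 0 became 1 with an offset and only the groups compared. For genes higher in C57BL6/J, 0 became 2 with quantile normalization and the 2 high arrays left out, 4 with array weights, 3 with only the groups compared, and 0 to 1 without single arrays. For genes lower in C57BL6/J, 0 became 4 with array weights, 1 with the 2 high arrays left out, the array median as covariate and only the groups compared, and 0 to 1 without single arrays. For genes higher in C3H/HeJ, 0 became 4 with array weights, 1 with the 2 high arrays left out, 3 with only the groups compared. For genes lower in C3H/HeJ, 0 became 1 with array weights, the 2 high arrays left out and the array median as covariate, and 0 to 1 without single arrays. For genes higher in CBA/J, 22 became 10 with quantile normalization, 14 with 75th percentile centring. For genes lower in CBA/J, 1 became 8 with quantile normalization, 3 with probe set means, array weights and the 2 high arrays left out, and 1 to 3 without single arrays. For genes higher in DBA/2J, 3 became 0 with 75th percentile centring and only the groups compared, 8 with array weights and the array median as covariate, 14 with the 2 high arrays left out, and 2 to 6 without single arrays. For genes higher in B6C3F1/J, 5 became 3 with quantile normalization, array weights and the 2 high arrays left out, 1 with the array median as covariate, 8 with the muscle-marker arrays left out, 0 with only the groups compared, and 0 to 13 without single arrays. For genes with a strain-by-diet interaction, 9 became 5 with 75th percentile centring, 23 with array weights, 21 with the 2 high arrays left out, 25 with the array median as covariate, 0 with CBA/J left out, quantile normalization and CBA/J left out and CBA/J and the 2 high arrays left out, 14 with each probe set tested separately, and 8 to 16 without single arrays. For genes of B6C3F1/J away from the mean of its parents on the control diet, 2 became 4 with quantile normalization and quantile normalization and CBA/J left out, 1 with 75th percentile centring, CBA/J left out and only the groups compared, 13 with array weights, 12 with the 2 high arrays left out and CBA/J and the 2 high arrays left out, 5 with the array median as covariate, 0 with a 1.5-fold minimum, and 2 to 5 without single arrays. Not applied were the 1.5-fold minimum to F tests and fits without CBA/J to counts within a strain. With the replicate block 25 genes were higher averaged over strains, as without it, and it changed no count by over 1.5 times.

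Among values of single genes, 1159 stayed on their side of the threshold with the same sign, 81 no longer passed, 63 passed newly and 22 turned sign. Those that stayed include the averaged values of 45 genes with only the groups compared, which repeat the main fit. With quantile normalization, the sign turned for Atp5b (-0.0038), Atp5g3 (-0.065), Atp5h (-0.016), Atp5j (-0.048), Cox4i1 (-0.00068), Cox6a1 (-0.059), Cox7a2 (-0.064), Uqcrq (-0.060), Uqcrb in CBA/J (-0.079) and Cox6a1 in CBA/J (-0.17). With quantile normalization and CBA/J left out, the sign turned for Atp5j (-0.024), Cox6a1 (-0.036), Cox6a2 (-0.092), Cox7c (0.051) and Uqcrq (-0.032). With B6C3F1/J control replicate 2 left out, the sign turned for Atp5j (-0.0080). With CBA/J and the 2 high arrays left out, the sign turned for Cox6a1 (-0.047), Cox6a2 (-0.28) and Cox7c (0.12). With CBA/J left out, the sign turned for Cox6a2 (-0.18) and Cox7c (0.081). With probe set means, the sign turned for Cox6c (-0.062). For Atp5j, fits without single arrays gave -0.0080 to 0.062. The cause was not tested. Signals near or below the array median, as for Cox6b2 outside 129S1/SvImJ, Cox4i2, Cox8b and Cox7c, leave sizes uncertain.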

Other observations

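Across the 96 mice, deviations of the 39 common subunit genes from their group means went together. The median pairwise correlation (Pearson) was 0.59 over 741 pairs of genes, with a range of -0.40 to 0.95. The same arrays underlie every pair, and the median correlation of these genes with the array median was -0.44, below 0 for 37 of 39. With the Gapdh 3′ minus 5′ difference it was -0.18.

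The muscle forms correlated with the summed muscle markers over 96 livers with Pearson's r of 0.71 for Cox6a2, 0.67 for Cox8b and 0.41 for Cox7a1. By rank the correlations were weaker, with Spearman's rho of 0.46, 0.31 and 0.24. The 96 include the 7 arrays with summed markers above 12, and r without them was not computed. These are descriptions over mice of all groups. Among common genes with a promoter window, those called higher averaged over strains held the NRF1 letters in 10 of 19 and the ETS letters in 7 of 19, and those not called in 5 and 6 of 12.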
